A study of Mus musculus with 56 samples.

Results

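The 175 microRNA genes described here were those named Mir followed by a digit that had a peak of RNAPII-pS5, p300 or p65 no more than 5000 bp from their annotated start, in at least 2 peak lists of the same antibody. They were 175 of 408 genes with such a name among 20352 gene names in the peak lists, and another 13099 genes outside the name rule met the same peak condition. The peaks came from chromatin immunoprecipitation followed by sequencing (ChIP-seq) in mouse bone-marrow-derived macrophages, in 56 samples with 2 per group. The macrophages of wild-type C57BL/6 mice, aged 8 to 12 weeks, were grown for 6 days with L929 supernatant as the source of M-CSF. In 1 experiment, untreated cells (ctrl) were compared with cells given 20 ng/ml interleukin-4 for 1 hr (1hIL4), with antibodies against 8 targets: RNA polymerase II phosphorylated at serine 5 (RNAPII-pS5) or serine 2 (RNAPII-pS2) of its C-terminal domain, acetylated lysine 27 of histone H3 (H3K27Ac), the macrophage transcription factor PU.1, the acetyltransferase p300 and the deacetylases HDAC1, HDAC2 and HDAC3. In the other, RNAPII-pS5, RNAPII-pS2 and the NF-kB subunit p65 were mapped in 4 conditions: untreated (ctrl_ctrl), 24 hr of 20 ng/ml IL-4 (24hIL4_ctrl), 1 hr of lipopolysaccharide, LPS, at 100 ng/ml (ctrl_1hLPS), and 24 hr of IL-4 followed by 1 hr of LPS (24hIL4_1hLPS). The LPS dose is that of the labels, whereas the methods of the study's paper give 100 nM. The study's paper describes ChIP-seq data as combined from 2 independent biological replicates. Nothing in the labels said that the 2 samples of a group came from separate mice, so p-values measured only the spread between these samples.

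MicroRNAs are short RNAs that guide Argonaute proteins to messenger RNAs, mainly through pairing of the seed near their 5′ end, and so lower the target's translation or stability. RNA polymerase II makes the long primary transcript, which often doubles as a host gene's transcript, and Drosha and Dicer cut the hairpin out of it. In macrophages the miR-155, miR-146 and miR-21 families are known for their part in the response to bacterial products, and miR-223 and miR-142 are abundant in myeloid and blood cells.

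The mature sequences of the microRNAs on which the results below turn are shown with the seed, bases 2 to 8, in capitals, so that members aimed at the same target sites can be seen together. RefSeq, on the GRCm38.p6 assembly, held mature sequences for 150 of the 175 members, 242 in all with 225 seeds, of which 15 were shared by 2 or more members.
miR-155-5p: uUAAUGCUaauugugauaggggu
miR-146a-5p: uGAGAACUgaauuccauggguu
miR-146b-5p: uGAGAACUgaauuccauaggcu
miR-132-3p: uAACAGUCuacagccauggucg
miR-212-3p: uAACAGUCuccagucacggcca
miR-221-3p: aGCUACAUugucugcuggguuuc
miR-125b-5p: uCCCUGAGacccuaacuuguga
miR-351-5p: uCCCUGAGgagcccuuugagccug
miR-21a-5p: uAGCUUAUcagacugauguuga
miR-214-3p: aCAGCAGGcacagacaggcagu
miR-147-5p: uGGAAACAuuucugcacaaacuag
miR-223-3p: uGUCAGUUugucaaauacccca
miR-142a-3p: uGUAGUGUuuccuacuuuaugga
miR-34a-5p: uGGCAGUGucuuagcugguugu
miR-17-5p: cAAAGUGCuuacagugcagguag
miR-32-5p: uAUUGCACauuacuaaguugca
miR-29b-3p: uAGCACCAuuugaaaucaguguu
miR-29c-3p: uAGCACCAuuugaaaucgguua
miR-511-3p: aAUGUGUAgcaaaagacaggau
miR-339-5p: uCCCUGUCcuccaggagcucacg
miR-484: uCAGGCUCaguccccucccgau
Mir146 and Mir146b shared the seed GAGAACU although they lie on different chromosomes. Mir132 and Mir212 shared AACAGUC, Mir29b-1, Mir29b-2 and Mir29c shared AGCACCA, and Mir125b-2 and Mir351 shared CCCUGAG. Mir146 and Mir146b did not have the same peaks, as the values below show. Mir132 and Mir212 start 294 bp apart, and each peak was assigned to the nearer start, so these neighbours could not share a listed peak.

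The annotated start used for each distance was that of the hairpin, not the start of the primary transcript. Of the 140 members with a hairpin in RefSeq, 33 lay in an exon and 58 in an intron of a host gene on the same strand, and 49 in no gene on that strand. Transcripts named like microRNAs, such as Mir22hg, were not counted as hosts or neighbours. The 49 may therefore include hairpins within such transcripts, and the counts with a host or a near start may be too low. The hairpin start was within 5000 bp of the start of another gene for 57 of the 140 and within 1000 bp for 25, so a peak there cannot be told apart from one of the host's or neighbour's promoter. Another 8 pairs of members, such as Mir132 and Mir212 with starts 294 bp apart, lay within 5000 bp of each other. Each peak in the files was assigned to its nearest start, so neighbours divided the peaks between them. Mir22hg, which is a host transcript rather than a hairpin, was caught by the name rule. For 7 members of the 140 the start in the files was over 100 bp from the RefSeq hairpin, and they (Mir1198, Mir1958, Mir297-1, Mir3110, Mir3473, Mir3962 and Mir421) and families with near-identical copies such as Mir466 are uncertain in their place.

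RNAPII-pS5, p300 and p65 chose the members, so the next counts describe the choice. Peaks of RNAPII-pS5 in at least 2 lists were found for 112 members, of p300 for 125 and of p65 for 76. All 3 antibodies chose 45 members, p300 alone 39, RNAPII-pS5 alone 34 and p65 alone 9. In exactly 2 lists of their only qualifying antibody stood 29 members, of which Mir132, Mir148a and Mir1892 come first by symbol. Just outside the rule were 23 Mir genes with a near peak in 1 list of an antibody, such as Mir143hg, Mir149 and Mir150, and 210 had none.

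The other 6 antibodies were not used by the rule. Compared with the 13099 other genes that met the peak condition, H3K27Ac peaks in at least 2 lists were found near fewer members, 66 of 175 or 37.7%, against 72.3% of the others. For HDAC1 the shares were 32.6% and 68.3%, and for HDAC2 29.7% and 44.8%. RNAPII-pS2 was found at 61.7% of the members and 79.1% of the others. PU.1 stood out for nearly equal shares, 56.6% and 58.2%, as did HDAC3 with 14.3% and 17.4%. In all 4 H3K27Ac lists the median score of the members with a peak, 41 to 54.5 normalized tags, lay below that of the other genes with a peak, 114 to 121. The members' median was also the lower in all 4 lists of PU.1 and of HDAC1. It was the lower in only 1 of 12 RNAPII-pS2 lists and in 1 of 4 for HDAC2 and for HDAC3. A peak in every list of the antibody was present for 48 members with H3K27Ac, 64 with PU.1 and 15 with RNAPII-pS2, whereas 107, 62 and 54 had none in any list. The plot of members by sample shows how many carried a near peak in each library.

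**Figure D1:**
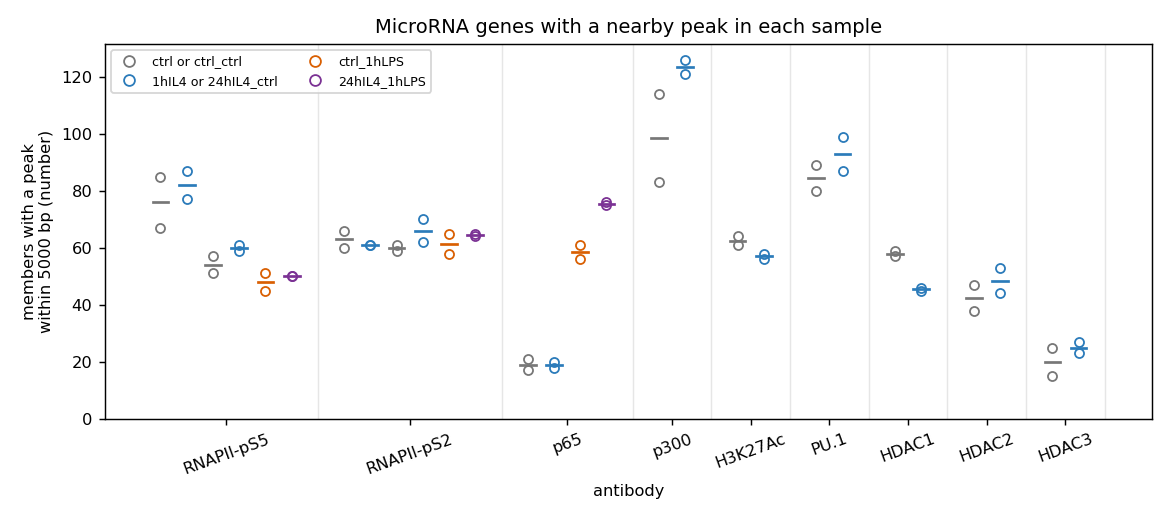
Number of the 175 microRNA genes with a peak within 5000 bp of the annotated start (y axis) in each sample (open circles), by antibody (x axis) and condition (colour), with short lines at the mean of 2 samples. The p65 lists held 17 to 21 members with a peak without LPS and 56 to 76 with LPS, and the p300 lists 83 to 126.

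Peaks near the members were spread over the whole window, as the plot of distances shows. Within 1000 bp of the start lay 39.7% of 949 RNAPII-pS5 peaks and 41.3% of 242 H3K27Ac peaks, against 25.6% of 410 p65 and 25.5% of 596 p300 peaks. Upstream of the start lay 60.5% of the p65 peaks, 51% of the p300 peaks and 45.6% of the RNAPII-pS5 peaks.

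**Figure D2:**
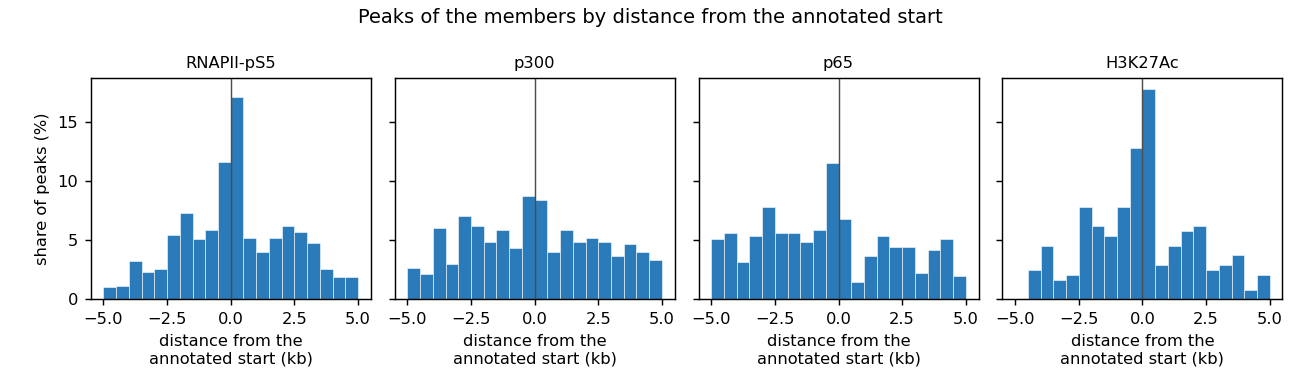
Share of the members' peaks (y axis, percent) in bins of distance from the annotated start (x axis, kb, negative upstream), pooled over the samples of each antibody. RNAPII-pS5 and H3K27Ac were densest next to the start, with 39.7% and 41.3% within 1000 bp, and p65 and p300 were spread more evenly.

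The level of a gene for an antibody was the sum of the scores of its peaks within 5000 bp, and 0 stands for no near peak. The score was the peak caller's −log10 of a p or q value, or normalized tags for H3K27Ac, so scores were compared only within an antibody and experiment. Changes were tested with limma on the log2 scale over all genes of an antibody, after centring each sample on the genes whose peaks were present throughout, and a call is an adjusted p of at most 0.05. A group without peaks was set to the antibody's lowest score, so the log2 change of a member that gained or lost its peaks depends on that value, and such a group carried no spread of its own. This held for 158 of 207 calls of members between 2 conditions. For RNAPII-pS5, p300 and p65, only members that another of these antibodies had also chosen are counted in tests, 78, 86 and 67 of them. Some of these were chosen from libraries of the same conditions. In 50 of the 207 calls the peaks lay in the 2 samples of 1 condition of the fit only, so that the member passed the filter on missing peaks through the group where it is high, and the scores of such members are given as a description, with no p. A member with near peaks only in the 2 conditions with LPS, or only in the 2 without, passed the filter through that side as well. The same holds for IL-4. For such members the printed p carries that limit, also where it is not repeated.

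Facts of the libraries bear on these values. The p65 lists held 9556 to 11026 peaks without LPS, 26305 and 26820 in ctrl_1hLPS and 36738 and 38955 in 24hIL4_1hLPS. The RNAPII-pS5 lists of ctrl_1hLPS were the shortest of that experiment, 14476 and 15349 against 17826 to 22149 peaks, and p300 ctrl replicate 1 held 44787 against 66710 to 69360. For RNAPII-pS2 after 1 hr of IL-4, names of peaks inside the 4 lists gave the treatment opposite to the labels. Genes known to respond to IL-4 went the same way as those names: in the libraries labelled 1hIL4, Socs1 was at −4.58 and Retnla at −2.93 on the log2 scale (limma adjusted p = 0.104 and 0.0968), whereas Socs1 rose by 1.89 in H3K27Ac (adjusted p = 0.00064). Labels were followed here, and directions in that fit are given as those of the libraries so labelled. Genes known to respond to LPS did not all go up in ctrl_1hLPS. p65 rose by 3.79 at Tnf and by 1.15 at Il1b but was at −1.32 at Nfkbia and −1.44 at Tnfaip3 (limma adjusted p = 0.0127, 0.0128, 0.0142 and 0.00598), of which the last 2 were at −0.29 and −0.41 without centring and no longer called. RNAPII-pS2 at Il1b was at −4.18 (adjusted p = 0.00198) and −4.24 without centring. The labels give the HDAC3 antibody the same catalogue number as the H3K27Ac antibody. Of 10 macrophage marker genes, 5 had a near RNAPII-pS5 peak in every sample, 3 in some and 2 (Spi1, and Adgre1 under that symbol) in none, and the summed score was 117 to 446, against 7.22 to 69.6 for 13 markers of other cells, of which 10 had no near peak in any sample. For H3K27Ac, 4 of the 10 had a near peak in every sample, 1 in some and 5 (Spi1, Cd68, Adgre1, Itgam and Lyz2) in none. The summed H3K27Ac score was 1802 to 3028, against 168.5 to 191.5 for the 13 others, of which 11 had no near peak.

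p65, which enters the nucleus after LPS, changed at a large share of the microRNA genes. In ctrl_1hLPS against ctrl_ctrl, 23 of 67 members tested rose and 2 fell (limma), where 20.8% of all genes tested rose and 2.95% fell. The median change was 1.27 on the log2 scale over these members and 0.617 over all genes. Of the 23 that rose, 19 had no near p65 peak in either ctrl_ctrl sample, and 21 had been chosen by another antibody in libraries without LPS, all but Mir155 and Mir214. The list of inflammation microRNAs had 2 of 4 tested members that rose, Mir155 and Mir21, and the list of myeloid microRNAs 4 of 7, Mir142, Mir22hg, Mir29b-1 and Mir34a. Mir155, in the counts of 23 and of 2, and Mir214, in that of 23, are described below without a test. Without centring the median of all genes was higher by 0.469, and 31 members rose and 1 fell.

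At Mir155, the microRNA of the Bic transcript, no p65 peak was near in ctrl_ctrl or 24hIL4_ctrl, and the summed scores were 66.3 and 60.1 in ctrl_1hLPS and 60.4 and 64.1 in 24hIL4_1hLPS. The 4 LPS samples were all high and the 4 others all without a peak. The fitted change was 5.10, given without a test because RNAPII-pS5, the other antibody that chose Mir155, also had its near peaks in LPS samples only. The hairpin lies at chr16:84714140-84714204 on the plus strand of GRCm38. No host gene was listed for it, but transcripts named like microRNAs were not counted as hosts. The strongest peak, with a score of 64.5 in ctrl_1hLPS replicate 1, was centred upstream at −946 bp, and the 300 bases around its centre, chr16:84713044-84713343 (plus strand), are shown because they carried the strongest p65 peak near any member in that list.
Mir155 p65 peak: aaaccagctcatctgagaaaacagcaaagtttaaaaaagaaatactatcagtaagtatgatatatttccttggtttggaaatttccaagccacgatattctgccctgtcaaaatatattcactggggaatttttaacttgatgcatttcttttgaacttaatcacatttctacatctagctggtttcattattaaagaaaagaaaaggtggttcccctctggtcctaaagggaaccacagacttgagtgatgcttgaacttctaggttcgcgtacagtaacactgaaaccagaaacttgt
They hold no match to a strict NF-kB pattern, GGG and TTTCC with any 2 bases between, on either strand. Looser forms of the NF-kB site were not searched, so the window may still hold such a site.

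Mir214, which lies in an exon of the Dnm3os transcript at chr1:162223368-162223477 (plus strand), had p65 scores of 56.02 and 51.2 in ctrl_1hLPS and 76.96 and 71.1 in 24hIL4_1hLPS and no peak in the other 4 samples. All 4 LPS samples thus stood above the rest, by a fitted change of 4.86 that is likewise given without a test. Its peak of ctrl_1hLPS replicate 1, the next in score, was centred 1630 bp downstream of the start, in the Dnm3os exon. The 300 bases around it, chr1:162224848-162225147 (plus strand), hold 1 match to the same pattern, in capitals, read on the minus strand.
Mir214 p65 peak: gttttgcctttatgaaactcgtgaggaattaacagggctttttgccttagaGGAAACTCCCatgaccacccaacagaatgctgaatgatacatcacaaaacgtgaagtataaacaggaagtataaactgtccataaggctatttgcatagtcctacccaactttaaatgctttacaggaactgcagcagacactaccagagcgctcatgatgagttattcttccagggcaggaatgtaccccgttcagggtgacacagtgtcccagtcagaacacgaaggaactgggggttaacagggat
Such a match was present in 6 of 69 windows around the members' p65 peaks of that list, 8.7%, and in 7.57% of 26298 windows of all its peaks. The PU.1 pattern GAGGAAGT was in 12 of the 69, 17.4%, and in 11.1% of all. Of the 69 peaks, 37 (53.6%) overlapped a PU.1 peak of untreated cells and 52 (75.4%) a p300 peak of ctrl replicate 2, against 60.5% and 81.4% of all 26305 p65 peaks.

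Among the inflammation microRNAs, Mir21 had p65 peaks in every sample. Its scores were 7.49 and 9.4 in ctrl_ctrl and 7.69 and 6.85 in 24hIL4_ctrl, and 55.7 and 64.8 in ctrl_1hLPS and 58.2 and 57.9 in 24hIL4_1hLPS. The LPS samples did not overlap the others, and the change after centring was 1.81 (SE 0.22, limma adjusted p = 0.00327). The hairpin of Mir21, a microRNA found at high levels in many cell types, is in an exon of Vmp1 at chr11:86584067-86584158 (minus strand), and its strongest p65 peak lay upstream, at −2931 bp, in an intron of Vmp1. Counting peaks at any distance that were not intergenic turned this change to −0.14. For Mir146b the scores were 0 in ctrl_ctrl, 0 and 5.2 in 24hIL4_ctrl, 21.5 and 11.5 in ctrl_1hLPS and 36.8 and 34.6 in 24hIL4_1hLPS, with a change of 3.09 that missed the threshold (limma adjusted p = 0.0659).

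Mir34a, a target of p53, went from no peak to 16.02 and 17.4 in ctrl_1hLPS (adjusted p = 0.000548) and stood at 14.6 and 19.1 in 24hIL4_1hLPS. Mir32, which lies in an intron of Tmem245 and shares its seed with Mir25, went from no peak to 19.98 and 12.7 (adjusted p = 0.00104) and had 27.5 and 29.6 in 24hIL4_1hLPS. Mir3109, in an intron of Anxa2, had 28.01 and 16.5 in ctrl_1hLPS and 53.4 and 61.3 in 24hIL4_1hLPS, again with none without LPS (adjusted p = 0.000938). In each of these genes every LPS sample was above every sample without LPS, and the calls held without any 1 sample. These genes passed the filter on missing peaks through LPS samples only. The other large rises were at Mir3960 (188 bp from the start of Cdk9), Mir5123 (in an intron of B4galt1), Mir3093, Mir762 and Mir22hg, with changes of 2.85 to 3.72. Over peaks at any distance that were not intergenic, that of Mir5123 turned from 3.15 to −0.17.
Other myeloid microRNAs had smaller p65 scores. Mir142 had no peak without LPS and 9.89 and 5.09 in ctrl_1hLPS (change 1.95, adjusted p = 0.0131), and Mir29b-1 had 6.49 and 5.12 (1.65, adjusted p = 0.00394). Both passed the filter on missing peaks through LPS samples only. The change of Mir29b-1 turned to −0.34 and that of Mir142 to −0.03 when missing peaks were set to 4 times the lowest score, and the call of Mir142 was lost without either ctrl_ctrl sample. Mir23a and Mir29b-2 had high p65 scores in ctrl_1hLPS, 52.5 and 49.4 and 34.5 and 32.1, but also in ctrl_ctrl, 33.5 and 33.04 and 18.1 and 9.63. After centring their changes were −0.42 and 0.30 (limma adjusted p = 0.542 and 0.732), so no change was detected. Both Mir23a scores with LPS lay above both in ctrl_ctrl, so its negative sign arose relative to the centring.
The 2 members that fell were Mir688, from 3.95 and 3.22 to no peak (change −1.99, adjusted p = 0.00272), and Mir1932. The scores of Mir1932 were 14.7 and 18.6 in ctrl_ctrl and 17.6 and 17.2 in ctrl_1hLPS and overlapped. Its change of −0.96 (adjusted p = 0.0281) arose relative to the centring, and without centring it was 0.07. It was also lost without any of the ctrl_ctrl or ctrl_1hLPS samples.

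**Figure D3:**
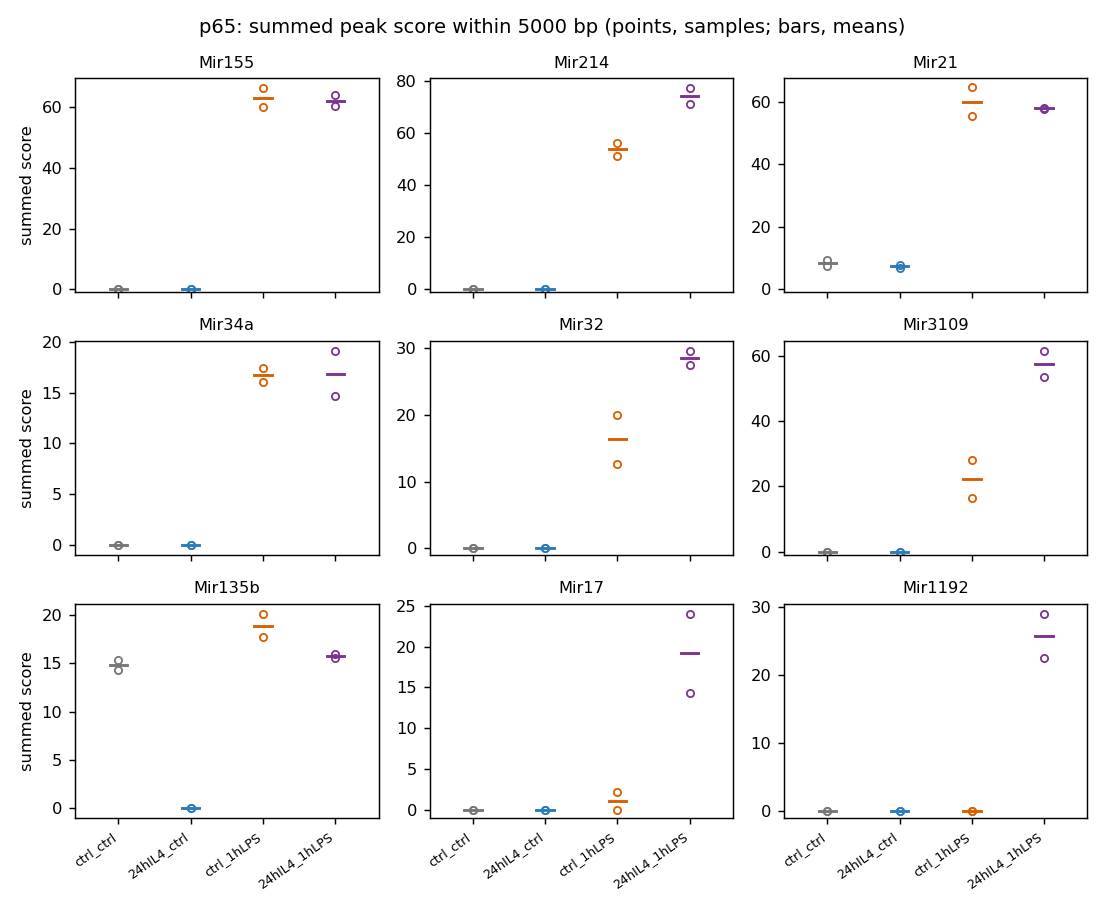
Summed p65 peak score within 5000 bp of the annotated start (y axis) of 9 microRNA genes in the 4 conditions of the 24 hr experiment (x axis), with circles for samples and bars for means. Mir155, Mir214, Mir34a, Mir32 and Mir3109 had peaks in the 4 LPS samples only, Mir135b lacked them in 24hIL4_ctrl only, and Mir17 and Mir1192 had theirs mainly with IL-4 and LPS together.

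After 24 hr of IL-4 alone, 4 of 67 members rose in p65 and 1 fell (all genes, 3.32% and 2.29%). The member that fell was Mir135b, in an intron of Gm29695 at chr1:132198088-132198184 (plus strand). It had scores of 15.3 and 14.3 in ctrl_ctrl, none in 24hIL4_ctrl, 17.7 and 20.1 in ctrl_1hLPS and 16.02 and 15.6 in 24hIL4_1hLPS. Both 24hIL4_ctrl samples were thus apart from the other 6 (change −4.04, SE 0.21, limma adjusted p = 0.0038), and the call held without any 1 sample. The 4 that rose were Mir1931, Mir704, Mir5122 and Mir466n, each from no peak to 3.8 to 9.54. Without centring 1 rose and 1 fell, and without 24hIL4_ctrl replicate 1 there were 12 calls.

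With IL-4 before LPS against LPS alone, 5 of 67 rose and 1 fell in p65 (all genes, 8.38% and 1.81%). Of the 5, 3 (Mir1192, Mir1893 and Mir1900) had peaks in 24hIL4_1hLPS only and are a description. Mir17, of a cluster known from tumours and at chr14:115043671-115043754 (plus strand), had 24.01 and 14.3 in 24hIL4_1hLPS, 0 and 2.22 in ctrl_1hLPS and no peak without LPS (change 2.87, SE 0.33, limma adjusted p = 0.00845). Mir1192 had 22.5 and 28.9 in 24hIL4_1hLPS and no peak in the other 6 samples. Mir688 (20.9 and 21.6), Mir1893 (12.7 and 12.4) and Mir1900 (5.55 and 9.57) also went up from no peak in ctrl_1hLPS, the last 2 with no peak in any other condition, and Mir5104 fell from 10.98 and 8.06 to 3.92 and 4.53. The number of calls was 15 without centring, 13 higher and 2 lower, and 0 without either 24hIL4_1hLPS sample. A member with peaks in 2 samples only, such as Mir1192, could not be tested once either was left out.
As a description of all 76 members chosen by p65, 53 had a peak in both ctrl_1hLPS samples and 68 in both 24hIL4_1hLPS samples, against 13 in both ctrl_ctrl and 13 in both 24hIL4_ctrl samples. A peak in both 24hIL4_1hLPS samples and no other was found for 10, among them Mir193b, with scores of 4.02 and 2.41. For Mir320, another of the 10, a peak of 2.55 in ctrl_1hLPS replicate 1 overlapped the place of its peak but was assigned to Polr3d.
LPS after IL-4, against IL-4 alone, raised p65 at 29 and lowered it at 4 of the 67 (all genes, 29.9% and 3.86%). Of the 29, 27 had been chosen by another antibody in libraries without LPS, all but Mir155 and Mir214. Peaks lay in 1 condition of the fit only for 4 of the 29, which are a description. The 4 that fell were Mir1932, Mir466n, Mir5122 and Mir704. Centring moved the median of all genes by 1.04, and without it 52 members rose and none fell, with the share of all calls that were higher moving from 88.6% to 98.7%. Mir1932 then stood at 0.76, Mir466n at 0.08 and Mir704 at 0.18, whereas Mir5122 stayed lower, at −1.07 (adjusted p = 0.154). Mir125b-2, a brake on inflammatory signalling in some settings, had p65 scores of 15.02 and 20.6 in 24hIL4_1hLPS, none in 24hIL4_ctrl, 3.64 and 3.04 in ctrl_1hLPS and 2.26 and 0 in ctrl_ctrl (change over 24hIL4_ctrl 2.94, limma adjusted p = 0.00661).

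RNA polymerase at the members moved in both directions after LPS. For RNAPII-pS5, the initiating form, 9 of 61 members tested rose and 7 fell in ctrl_1hLPS, where 6.99% of all genes rose and 19.4% fell (limma). Of the 9, 8 had been chosen by another antibody in libraries without LPS, all but Mir155. For RNAPII-pS2, the elongating form, 12 of 97 rose and 12 fell (all genes, 7.45% and 10.4%). Peaks lay in 1 condition of the fit only for 2 of the 12 that rose and 4 of the 12 that fell. In RNAPII-pS5 this held for 1 of the 9 and 1 of the 7. Those are a description. The median change was 0 in RNAPII-pS5 and 0.06 in RNAPII-pS2 over the members and −0.57 and −0.19 over all genes. Without centring 8 rose and 9 fell in RNAPII-pS5, and 11 rose and 13 fell in RNAPII-pS2. Without ctrl_ctrl replicate 1 the number of calls was 10 in RNAPII-pS5, against 16. In RNAPII-pS2 it was 14 without ctrl_ctrl replicate 1, 13 without ctrl_ctrl replicate 2 and 13 without ctrl_1hLPS replicate 1, against 24. Of the inflammation microRNAs, 4 of 6 tested were called higher in RNAPII-pS5 (Mir125b-2, Mir155, Mir212 and Mir221) and 4 of 7 in RNAPII-pS2 (Mir125b-2, Mir146b, Mir155 and Mir221), and none fell. None of 5 and of 10 myeloid microRNAs tested was called in either. Mir155, counted among those higher in both antibodies, and Mir212, counted so in RNAPII-pS5, are given below as a description, without a test.

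Mir155 gained both forms. RNAPII-pS5 was absent from the 4 samples without LPS and scored 55.5 and 64.6 in ctrl_1hLPS and 57.4 and 52.8 in 24hIL4_1hLPS, a fitted change of 5.69 given without a test, since p65 at Mir155 was in LPS samples only. RNAPII-pS2 was also absent from those conditions and scored 57.7 and 44.8 in ctrl_1hLPS and 56.4 and 59.8 in 24hIL4_1hLPS. The fitted change of 5.22 is likewise given without a test. The antibodies that chose Mir155 had its near peaks in LPS samples only. For RNAPII-pS2, too, Mir155 passed the filter on missing peaks through LPS samples only. The scores with and without IL-4 overlapped in both antibodies, and no RNAPII-pS5 peak was near Mir155 in the 4 samples of the 1 hr experiment.
Mir221, at chrX:19146294-19146388 on the minus strand, had polymerase before LPS. Its RNAPII-pS5 scores were 5.81 and 4.18 in ctrl_ctrl, 15.1 and 15.3 in 24hIL4_ctrl, 32.4 and 37.6 in ctrl_1hLPS and 20.9 and 31.8 in 24hIL4_1hLPS. It rose with LPS by 3.17 and with IL-4 by 1.59 (SE 0.33 for each, limma adjusted p = 0.00249 and 0.0473). The samples of the 4 conditions did not overlap. The LPS call held without any 1 sample, and the IL-4 call was lost whichever sample was left out, with changes of 1.38 to 1.78. In RNAPII-pS2 it went from 10.2 and 3.83 to 34.02 and 32.8 with LPS (2.52, adjusted p = 0.0168), a call lost without either ctrl_1hLPS sample (1.83 to 3.18).
Mir125b-2 gained RNAPII-pS5 with LPS, from no peak to 6.6 and 8.14 (2.66, adjusted p = 0.00857), and RNAPII-pS2, from 3.28 and 0 to 9.44 and 8.04 (2.11, adjusted p = 0.0204), the latter lost without ctrl_ctrl replicate 2 or either ctrl_1hLPS sample (1.52 to 2.66). In RNAPII-pS5 Mir125b-2 passed the filter on missing peaks through LPS samples only. Mir3095, in an intron of Lpar1, had no RNAPII-pS2 in untreated or IL-4 samples and 58.3 and 54.8 in ctrl_1hLPS (5.37, adjusted p = 0.00183), with RNAPII-pS5 of 11.99 and 11.8 and p65 of 8.03 and 5.91. Mir3095 was called higher with LPS in all 3 antibodies. Mir155 was also higher in all 3, but its changes are given without a test. Mir3095 passed the filter on missing peaks in RNAPII-pS2 and p65 through LPS samples only. With missing peaks at 4 times the lowest score the p65 change of Mir3095 turned to −0.09. The RNAPII-pS5 and p65 calls of Mir3095 were lost without 1 of the ctrl_ctrl samples or ctrl_1hLPS replicate 1, among others, with changes of 3.33 to 3.49 and 1.62 to 2.07. Mir214 gained RNAPII-pS2 (22.1 and 16.1) beside p65, and Mir32 gained RNAPII-pS5 (8.5 and 10.03) beside p65.
Mir212, of a cluster with Mir132 at chr11:75173388-75173478, had RNAPII-pS5 peaks only in ctrl_1hLPS, 6.07 and 7.21. Its neighbour with the same seed, Mir132, had them only in 24hIL4_ctrl, 5.2 and 4.98. The starts of the pair are 294 bp apart, and each low peak was given to the nearer.

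Among the members that fell with LPS were some beside gene promoters. Mir484, whose hairpin is 348 bp from the start of Marf1, had RNAPII-pS5 scores of 25.4 and 23.1 in ctrl_ctrl and 32.7 and 24.3 in 24hIL4_ctrl and no peak in the 4 LPS samples (−4.04, SE 0.29, limma adjusted p = 0.00205). Its RNAPII-pS2 scores of 22.6 and 21.9, and 13.7 and 15.5, were also followed by none with LPS (−3.93, adjusted p = 0.00193). Mir339, in an intron of 3110082I17Rik at chr5:139369650-139369745, fell in RNAPII-pS5 from 54.6 and 57.6 to 0 and 9.86 (−3.72, adjusted p = 0.0308) and in RNAPII-pS2 from 57.5 and 54.3 to 11.9 and 8.56 (−2.37, adjusted p = 0.00424). LPS samples of both genes were all below those without LPS. Mir484 passed the filter on missing peaks in both forms through samples without LPS only. The calls of Mir484 held without any 1 sample, whereas that of Mir339 in RNAPII-pS5 was lost in 6 of 8 such fits, among them those without either ctrl_ctrl sample, with changes of −5.26 to −2.10. In 24hIL4_1hLPS no RNAPII-pS5 peak of Mir339 was within 5000 bp, but in 1 sample its own peak of score 4.58 lay 5159 bp away. Mir1934 also fell in both forms. Mir1946b had low peaks of both in ctrl_ctrl only, and its changes turned to 0.04 and 0.03 with missing peaks at 4 times the lowest score and, over peaks at any distance that were not intergenic, to a rise of 1.52 in RNAPII-pS2 (limma adjusted p = 0.0307).

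**Figure D4:**
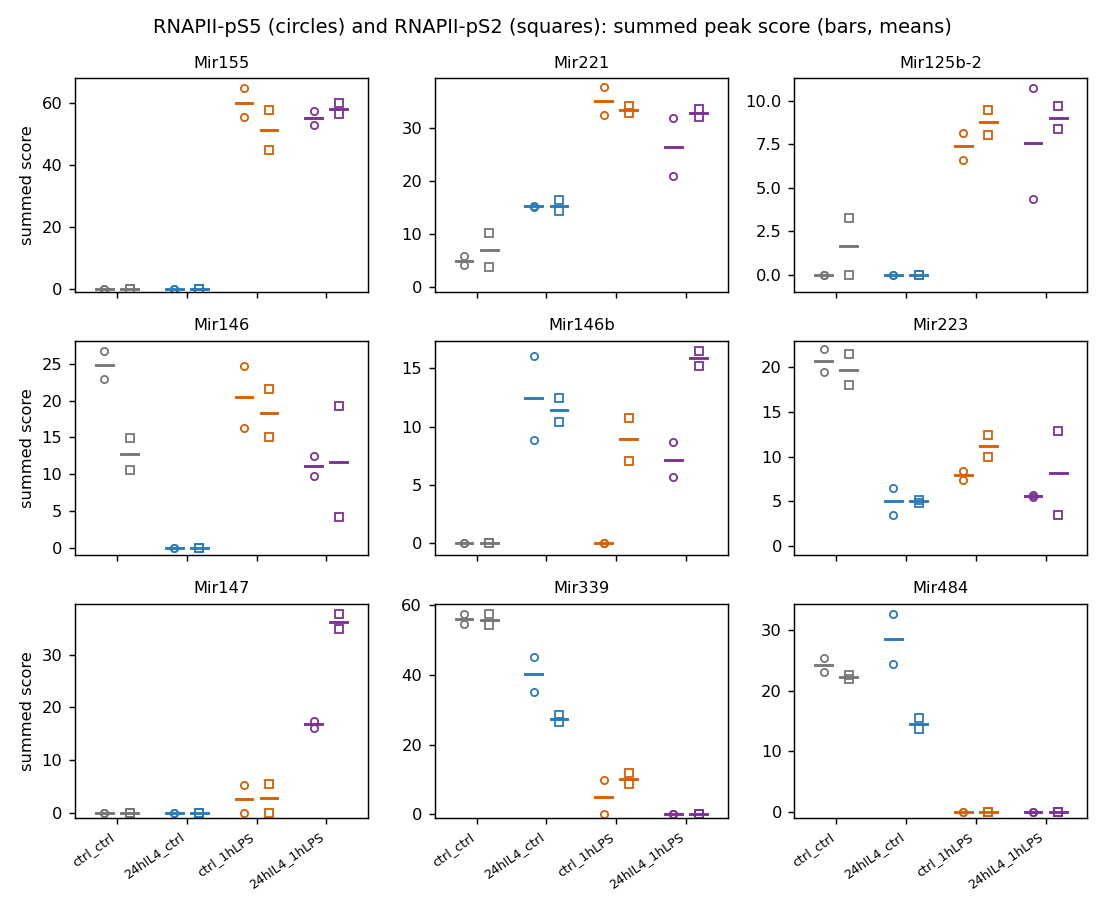
Summed peak score within 5000 bp (y axis) of RNAPII-pS5 (circles) and RNAPII-pS2 (squares) for 9 microRNA genes in the 4 conditions of the 24 hr experiment (x axis), with bars for the mean of 2 samples. Mir155 had both forms in LPS samples only, Mir484 had both in samples without LPS only, Mir146 had no peak and Mir146b had peaks of both forms in 24hIL4_ctrl.

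IL-4 for 24 hr changed RNAPII-pS5 at 4 higher and 3 lower of 61 members (all genes, 3.49% and 2.55%) and RNAPII-pS2 at 10 higher and 5 lower of 97 (all genes, 4.92% and 5.52%). Peaks lay in 1 condition of the fit only for 5 of these 10 and 4 of these 5. In RNAPII-pS5 this held for 1 of the 4 and 1 of the 3. Those are a description. Without a ctrl_ctrl or 24hIL4_ctrl sample the number of calls was 0 to 2 in RNAPII-pS5, against 7, and 5 to 8 in RNAPII-pS2, against 15. Mir146b, which lies in an intron of Gm36493 at chr19:46342762-46342870 (plus strand), had no RNAPII-pS5 peak in ctrl_ctrl or ctrl_1hLPS and 8.83 and 16.01 in 24hIL4_ctrl and 8.64 and 5.66 in 24hIL4_1hLPS. Samples with IL-4 thus all had a peak and those without had none (2.98, SE 0.38, limma adjusted p = 0.0125), but the call was lost without any of the ctrl_ctrl or 24hIL4_ctrl samples (2.57 to 3.39). In RNAPII-pS5 Mir146b passed the filter on missing peaks through IL-4 samples only. Its RNAPII-pS2 scores were 0 in ctrl_ctrl, 12.4 and 10.4 in 24hIL4_ctrl (3.18, adjusted p = 0.00547), 7.05 and 10.8 in ctrl_1hLPS and 15.2 and 16.5 in 24hIL4_1hLPS.
Mir146, its partner by seed at chr11:43374397-43374461 (minus strand), went the other way. Its RNAPII-pS2 scores were 10.5 and 14.9 in ctrl_ctrl, 0 in both 24hIL4_ctrl samples, 15.1 and 21.6 in ctrl_1hLPS and 19.3 and 4.12 in 24hIL4_1hLPS, a change with IL-4 of −3.10 (SE 0.72, limma adjusted p = 0.0485). That call was kept in 2 of 8 fits without 1 sample, those without a 24hIL4_1hLPS sample. RNAPII-pS5, through which alone Mir146 was chosen and which is given without a test, was 22.98 and 26.8, 0 and 0, 16.4 and 24.7, and 9.76 and 12.5 in the same order. Both forms were therefore listed at 0 in 24hIL4_ctrl and present in the other conditions.
Mir147, in an exon of AA467197 at chr2:122640803-122640881, had polymerase mainly with IL-4 and LPS together. Its RNAPII-pS2 scores were 34.8 and 37.8 in 24hIL4_1hLPS and 5.49 and 0 in ctrl_1hLPS, with none in the other 4 samples (3.61 over ctrl_1hLPS, limma adjusted p = 0.0282, and kept in 2 of 8 fits without 1 sample, those without a ctrl_1hLPS sample). Over 24hIL4_ctrl the change was 4.60 (adjusted p = 0.0063), kept in all 8. RNAPII-pS5, the antibody that chose it, was 17.4 and 16.1, and 5.14 and 0, in the same samples.
Mir223, in an exon of F630028O10Rik at chrX:96242817-96242926, was also chosen through RNAPII-pS5 alone, with scores of 19.5 and 21.97 in ctrl_ctrl, 3.52 and 6.53 in 24hIL4_ctrl, 7.35 and 8.44 in ctrl_1hLPS and 5.75 and 5.51 in 24hIL4_1hLPS. Its RNAPII-pS2 scores were 17.95 and 21.5, 5.18 and 4.83, 9.98 and 12.4, and 3.42 and 12.9 in that order. The ctrl_ctrl samples were the highest in both, but the RNAPII-pS2 change with IL-4 of −1.75 missed the threshold (limma adjusted p = 0.163). Mir142, at chr11:87756864-87756927, kept RNAPII-pS5 scores of 18.1 to 34.04 over all 8 samples.
Mir126, in an intron of the endothelial gene Egfl7, had RNAPII-pS2 in the 24 hr experiment only in 24hIL4_ctrl, 9.89 and 14.1, and Mir511 there only in ctrl_ctrl, 5.82 and 6.77. Mir210, known for its induction by low oxygen, had RNAPII-pS5 of 29.6 to 33.9 in the 4 samples of the 1 hr experiment and no peak in the 8 of the other.

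With IL-4 before LPS against LPS alone, RNAPII-pS5 rose at 2 members and fell at 3 of 61 (all genes, 7.07% and 2.38%), and RNAPII-pS2 rose at 4 and fell at 5 of 97 (all genes, 3.48% and 2.35%). Peaks lay in 1 condition of the fit only for 1 of the 3 in RNAPII-pS5. In RNAPII-pS2 this held for 1 of the 4 and 2 of the 5. Those are a description. The 9 calls in RNAPII-pS2 became 0 without either 24hIL4_1hLPS sample, and the 5 in RNAPII-pS5 became 2 without 24hIL4_1hLPS replicate 2. Without centring the share of all RNAPII-pS5 calls that were higher moved from 74.8% to 86.9%. Mir212 was among those that fell in RNAPII-pS5 (to no peak), as was Mir1893, from 12.1 and 8.65 to none. Mir191, in an exon of Dalrd3, rose in RNAPII-pS2 from 0 and 3.63 to 19.7 and 16.8 (2.88, limma adjusted p = 0.0267), but in ctrl_1hLPS replicate 1, the sample at 0, an overlapping peak of 16.8 was assigned to Ndufaf3. Mir5130 fell from 35.9 and 27.02 to 6.73 and 5.23 (−2.53, adjusted p = 0.0184). Mir23a fell from 14.5 and 10.7 to none within the window, but peaks of 14.8 and 10.4 lay at −5172 and −5068 bp in the 24hIL4_1hLPS samples.
LPS after IL-4 against IL-4 alone gave 5 higher and 7 lower members of 61 in RNAPII-pS5 (all genes, 5.83% and 12.2%) and 12 higher and 13 lower of 97 in RNAPII-pS2 (all genes, 7.71% and 8.1%). Peaks lay in 1 condition of the fit only for 1 of the 5 and 1 of the 7. In RNAPII-pS2 this held for 2 of the 12 and 5 of the 13. Those are a description. Mir155 was higher in both, by 5.05 in RNAPII-pS5 and 5.27 in RNAPII-pS2, each given without a test. Mir484 and Mir339 fell in both. Whether the LPS response itself differed with IL-4 was tested by the interaction, which was higher at 2 and lower at 4 members in RNAPII-pS5 (all genes, 3.2% and 1.79%), at 2 and 8 in RNAPII-pS2 (2.96% and 2.05%) and at 5 and 2 in p65 (5.55% and 2.4%). In each antibody some of these calls had peaks in 1 condition of the fit only and are a description. Every interaction call of the polymerase antibodies was lost when any 1 sample was left out, and those of p65 when either 24hIL4_1hLPS sample was. Without centring the share of all p65 interaction calls that were higher moved from 69.8% to 85.3%.

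The order of the members by mean RNAPII-pS5 score differed between the experiments. In the 1 hr experiment the highest means were those of Mir5122 (206), Mir484 (176), Mir339 (138), Mir1945 (126) and Mir1956 (119.9). In the 24 hr experiment they were those of Mir1894 (88.2), Mir26b (61.7), Mir5122 (54.7), Mir21 (40.9) and Mir155 (28.8), where Mir484 had 13.2 and ranked 18. Those with the highest mean p65 scores were Mir23a (38.7), Mir29b-2 (33.9), Mir21 (33.5), Mir214 (31.9) and Mir155 (31.4). For p300 they were Mir339 (330.3), Mir3971 (167), Mir22hg (159), Mir21 (158) and Mir760 (137). Mir21 was thus among the highest for RNAPII-pS5 in the 24 hr experiment, p65 and p300, and Mir339 for RNAPII-pS5 in the 1 hr experiment and p300.

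After 1 hr of IL-4, H3K27Ac, a mark of active promoters and enhancers, changed at 22 of 66 members, 10 higher and 12 lower (limma), where 9.79% of all genes rose and 11.4% fell. The median change was −0.05 over the members and −0.02 over all genes. Of the 22, 14 had peaks in all 4 samples, 8 higher and 6 lower. The others, 2 higher and 6 lower, had near peaks in 1 condition only and are a description. Without centring 10 rose and 12 fell, and the share of all calls that were higher moved from 46.1% to 57.2%. The count was 8 without ctrl replicate 1, 12 without ctrl replicate 2, 8 without 1hIL4 replicate 1 and 6 without 1hIL4 replicate 2. The calls of Mir339, Mir704 and Mir466b-2 were kept in every such fit.

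Mir511 is encoded in an intron of Mrc1, the mannose receptor gene that marks alternative activation, at chr2:14261003-14261081 (plus strand). Its H3K27Ac scores were 197 and 208 in ctrl and 382 and 359.6 in 1hIL4, which do not overlap (0.81, SE 0.07, limma adjusted p = 0.00874). The call was lost without either 1hIL4 sample, with changes of 0.76 to 0.86 over the fits. p300, through which Mir511 was chosen, scored 50.8 and 127 in ctrl and 178 and 168 in 1hIL4. PU.1 scored 48.5 and 31.3 and then 68.5 and 113 (0.82, adjusted p = 0.686), which did not pass the test. The p300 peak in 1hIL4 replicate 1 was centred 1358 bp downstream of the start, in intron 6 of 29 of Mrc1, at the same place as the PU.1 peak. The 300 bases around it, chr2:14262211-14262510 (plus strand), are shown as the site beside the alternative-activation microRNA, with the match to the STAT pattern, TTC and GAA with any 4 bases between, in capitals.
Mir511 p300 peak: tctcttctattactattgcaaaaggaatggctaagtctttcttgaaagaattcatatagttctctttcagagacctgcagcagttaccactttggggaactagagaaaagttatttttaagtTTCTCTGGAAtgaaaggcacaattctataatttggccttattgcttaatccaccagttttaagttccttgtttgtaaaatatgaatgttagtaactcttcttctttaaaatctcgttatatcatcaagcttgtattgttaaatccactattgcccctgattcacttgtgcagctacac
That pattern was in 26 of 165 windows of the members' p300 peaks in this list, 15.8%, and in 14.2% of 67020 windows of all its peaks.
Mir339 had the highest H3K27Ac of the members that rose, 684 and 649.5 in ctrl and 1382 and 1358 in 1hIL4 (0.98, SE 0.05, limma adjusted p = 0.00325). Its p300 scores were 135 and 332 and then 427 and 428. Mir704, in an exon of Pdia4, went from 40.8 and 30.3 to 259 and 248 (2.79, SE 0.17, adjusted p = 0.00437), and Mir1942 from no peak to 247 and 249. Mir466b-2 went from 93.6 and 95.6 to 190.4 and 191 (0.95, adjusted p = 0.00291). In each of these the 1hIL4 samples were both above the ctrl samples.
Smaller rises were measured at Mir125b-2, from 92.4 and 104 to 148 and 163 (0.60, limma adjusted p = 0.0314), and at Mir17, from 27.9 and 30.9 to 47.7 and 44.8 (0.59, adjusted p = 0.0245), and both calls were lost when any 1 sample was left out. Mir125b-2 also had p300 of 6.32 and 33.6 in ctrl and 102 and 72.9 in 1hIL4. Mir142 had high H3K27Ac with little spread, 689 and 674, and 654 and 671.

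The largest falls were at Mir5104, from 702 and 654 to no near peak, and at Mir5136, from 185 and 172 to none. In both, overlapping 1hIL4 peaks were assigned to the neighbouring gene, with scores of 549.6 and 582 at Zc3h12d and 208 and 201 at 5730408K05Rik, so these calls reflect the assignment of a peak. Mir687 fell from 30.4 and 33.1 to none and Mir33, in an intron of the sterol regulator Srebf2, from 18.4 and 23.7 to none. With peaks in all 4 samples, Mir1941 fell from 90.2 and 83.1 to 47 and 47.6 (−0.94, SE 0.06, limma adjusted p = 0.00541) and Mir3971 from 399 and 388 to 285 and 266 (−0.58, adjusted p = 0.0136). Mir378, of the alternative-activation list, stood at 25.5 and 37.5 in ctrl and 21.2 and 17.7 in 1hIL4 and was not called.

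**Figure D5:**
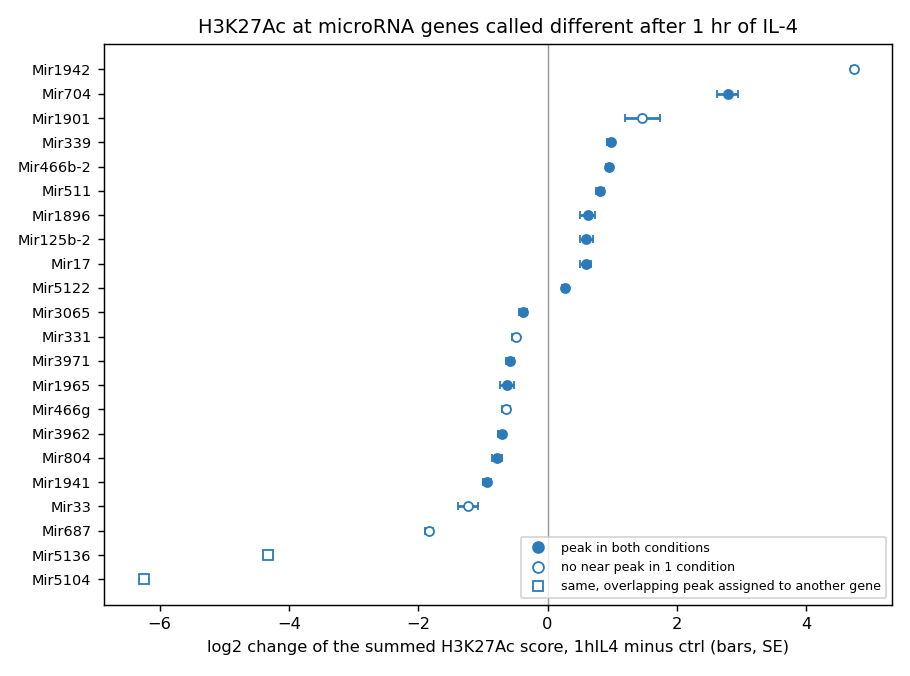
Log2 change of the summed H3K27Ac score, 1hIL4 minus ctrl (x axis, bars are SE), of the 22 microRNA genes called different (y axis), with filled circles for peaks in both conditions, open circles for no near peak in 1 condition and open squares where an overlapping peak there was assigned to another gene. Mir1942 and Mir704 rose most, and the falls of Mir5104 and Mir5136 are the open squares.

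p300 rose at 1 member and fell at none of 86 (all genes, 1.4% and 0.213%, limma), and at an unadjusted p of at most 0.05 it was higher at 16 and lower at 11 (all genes, 11.2% and 5.78%). The member was Mir5122, from no near peak to 16.04 and 24.6, but overlapping ctrl peaks were assigned to another gene. It passed the filter on missing peaks through its 1hIL4 samples only, so its rise is a description. Without ctrl replicate 1, the short list, no member was called, and without ctrl replicate 2 there were 19. Without either 1hIL4 sample none was called. Without centring 3 members rose, and the share of all calls that were higher moved from 86.8% to 97.2%. Mir146b had p300 scores of 8.77 and 49.04 in ctrl and 102 and 105 in 1hIL4 (1.46, limma adjusted p = 0.225), and Mir704 7.19 and 43.9 and then 187 and 187 (2.54, adjusted p = 0.115). Mir15b, chosen through p300 alone, had 10.4 and 28.2 and then 104 and 119.7. In these, both 1hIL4 samples were above both ctrl samples, and ctrl replicate 1 was the lowest.
RNAPII-pS5 rose at 2 members, Mir1190 (from none to 15.8 and 10.1) and Mir1946b (from none to 5.83 and 5.11), and fell at none of 64 (all genes, 0.882% and 0.892%), with 6 higher and 4 lower at an unadjusted p of at most 0.05 (all genes, 5.13% and 5.91%). Both members had near peaks in 1hIL4 only in this fit. They passed the filter on missing peaks through the group where they are high, so these rises are a description. Both calls were lost when any 1 sample was left out. Mir1190, in an intron of Ccdc88c, was also higher in RNAPII-pS5 and RNAPII-pS2 after 24 hr of IL-4. Mir146b had RNAPII-pS5 of 17.2 and 8.17 in 1hIL4 and none in ctrl without being called, while Mir223 was at 20.5 and 29.6 in ctrl and 0 and 7.59 in 1hIL4.
For RNAPII-pS2 no member of 63 was called (all genes 0%), with 2 higher and 2 lower at an unadjusted p of at most 0.05 by limma (all genes, 6.84% each way). Mir142 was at 107 and 92.9 in the libraries labelled ctrl and 15.4 and 0 in those labelled 1hIL4 (−4.35, limma adjusted p = 0.309), but in 1hIL4 replicate 2, the library at 0, an overlapping peak of 85.5 was assigned to Bzrap1. Mir223 was at 8.57 and 17.5 and then 48.1 and 53.1 (2.10, limma adjusted p = 0.108), with no overlap.
PU.1 had no call among 99 members (limma, all genes 0%), with 6 higher and 5 lower at an unadjusted p of at most 0.05 (all genes, 6.12% and 3.8%). HDAC1 had none of 57 (all genes 0%), and 2 and 5 unadjusted (2.47% and 7.09%). HDAC2 had none of 52 (0%), and 6 and 1 unadjusted (6.27% and 4.15%), and HDAC3 none of 25 (0%), and 1 and 0 unadjusted (13.6% and 3.81%). At Mir155, PU.1 was 0 and 15.97 in ctrl and 4.34 and 10.01 in 1hIL4, and at Mir223 it was 33.3 and 19.3 and then 12.5 and 18.6, overlapping or close in both. HDAC2 at Mir146b was absent from ctrl and 8.93 and 8.54 in 1hIL4 (2.64, limma adjusted p = 0.379), and HDAC1 at Mir511 was 10.6 and 8.28 in ctrl and absent from 1hIL4.

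Of 30 listed genes of the microRNA machinery, 17 were tested for p65, and 4 of them rose with LPS (all genes, 20.8%), with a median change of 1.26 over the 17 and 0.617 over all genes. The share that rose was thus close to that of all genes. They were the Argonautes Ago1 and Ago3, Srrt, a partner of the primary-transcript processing complex, and Zcchc11, which adds uridines to precursors. Ago3 had p65 of 26.5 and 24.1 in ctrl_1hLPS and none in ctrl_ctrl, and Srrt 31.4 and 25.3 and none. The same 4 rose with LPS after IL-4, a smaller share than over all genes (29.9%). RNAPII-pS2 at Drosha, which cuts the hairpin from the primary transcript, was 3.97 and 6.67 in ctrl_1hLPS and absent from the other 6 samples. Drosha was the call among 22 tested for LPS in RNAPII-pS2 (all genes, 7.45% higher and 10.4% lower). It passed the filter on missing peaks through its ctrl_1hLPS samples only, so its rise is a description. Tnrc6b, an Argonaute partner, fell in RNAPII-pS5 from 47.2 and 43.3 to 16.96 and 9.69, the call among 22 there (6.99% higher and 19.4% lower). In RNAPII-pS2, Ran was lower after 24 hr of IL-4 (all genes, 5.52% lower). With LPS after IL-4 against IL-4 alone, Ran was higher and Ddx17 lower (7.71% and 8.1%). Pnpt1 was then higher in RNAPII-pS5 (5.83%). Drosha was lower in RNAPII-pS2 with IL-4 before LPS against LPS alone (2.35%), which restates its ctrl_1hLPS peaks. After 1 hr of IL-4, Tarbp2, a Dicer partner, rose in RNAPII-pS5 (none to 9.71 and 11.3) and in p300 (none to 142 and 154), and Ago1 in H3K27Ac (53.7 and 55.3 to 67.9 and 70.8). These were the calls among 24, 25 and 23 tested, where 0.882%, 1.4% and 9.79% of all genes rose. Tarbp2 passed the filter through its 1hIL4 samples only, so its rises are a description.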

How the data were processed

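Each of the 56 samples had 1 annotated list of peaks. Per the labels, the reads were aligned to mm10 (GRCm38), and the submitters' processing notes name BWA 0.7.10, SAMtools 0.1.19, HOMER 4.2 and MACS2 2.0.10. The authors called peaks with MACS2 at a q-value of 0.01 and deposited a −log10 score, of a p-value or a q-value, which of the 2 is not given in the sources used here. For H3K27Ac the authors used HOMER regions of 1000 bp, whose deposited score is a signal of normalized tags. No read counts were used, depth is therefore unknown, and peak numbers stand in for it. In all, 1610519 peaks were read, 173 of them without a gene name.

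The scores of a gene's peaks within 5000 bp were summed, put on the log2 scale and centred per sample on the median of genes with a peak in every sample. A missing peak was given the antibody's lowest score, the same centred value in every sample, and a gene needed peaks in at least 2 samples of a fit. limma 3.58.1 in R 4.3.3 tested 11 fits with Benjamini-Hochberg adjustment over all genes, after the scripts were tested on simulated data. The study's own read-based comparison could not be run on peak lists. Python 3.11.15, pandas 2.3.3, numpy 2.4.6, pysam 0.24.0 and matplotlib 3.10.9 did the rest. Genes were named by a rule: members of the inflammation (11 members), myeloid (17) and alternative-activation (3) lists, up to 10 called members per direction and comparison by size of change, and the highest means of RNAPII-pS5, p65 and p300. The members and lists were chosen with earlier results of these data known. Sequences and hairpin positions came from RefSeq on GRCm38.p6. Motif windows were the 300 bases around a peak's centre, searched on both strands. Sample replicate numbers were not used as pairs.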

Additional observations from a re-analysis of the deposited data

Results flagged for a closer look

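By limma's interaction term, 23 results of members were called for a difference of the LPS response with and without IL-4 pretreatment. Each value is the log2 change with LPS after IL-4 minus that without IL-4. For those with no p printed, the peaks lay in 1 condition of the fit only. Their difference restates that condition's peaks and is a description, not a tested difference.

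For RNAPII-pS5 the difference was 1.85 at Mir1946b, 3.08 at Mir670 (adjusted p = 0.0421), −3.65 at Mir1893 (0.0287), −2.51 at Mir212, −2.55 at Mir221 (0.0412) and −1.82 at Mir692-1. At Mir221 the score rose with IL-4 alone as well as with LPS alone, whereas Mir212 had its peaks in ctrl_1hLPS only.

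For RNAPII-pS2 it was 2.11 at Mir511 and 2.16 at Mir713. It was negative at Mir101a (−2.12), Mir1224 (−1.98), Mir126 (−3.24), Mir146b (−2.46, adjusted p = 0.046), Mir3092 (−2.57, 0.0375), Mir339 (−2.08, 0.045), Mir5130 (−2.73, 0.046) and Mir692-1 (−2.31). Mir101a, Mir1224, Mir126 and Mir692-1 had RNAPII-pS2 peaks in the 24hIL4_ctrl samples and none in ctrl_ctrl, and Mir511 and Mir713 the reverse.

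For p65 it was 3.47 at Mir1192, 3.46 at Mir135b (adjusted p = 0.0134), 2.87 at Mir17 (0.0284), 2.45 at Mir1893 and 2.22 at Mir688 (0.0216), and −3.20 at Mir466n (0.0176) and −3.94 at Mir5122 (0.0165). Without either 24hIL4_1hLPS sample no p65 interaction was called, and for RNAPII-pS5 and RNAPII-pS2 none was called without any 1 of the 8 samples.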

How the results depend on the processing

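Limits: each group had 2 samples, no read counts were used, so depth is unknown, and a group without peaks carries no spread. A peak is assigned to the nearest start only, and the score grows with sequencing depth, so a lost peak cannot be told apart from a shallow library. Replicate numbers did not pair samples (correlations of −0.036 to 0.089 between samples of a number). Over 230 results of members and every alternative, 2311 values kept direction and side of the threshold, 842 lost the call and 46 changed sign. The cause was not tested.

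Members numbered 73 within 1000 bp and 108 with the upper 50% of peaks. The numbers of called members that moved by over 1.5 times are given by setting, where "over LPS" stands for IL-4 with LPS against LPS alone and "over IL-4" for the same against IL-4 alone. At an unadjusted p, RNAPII-pS5 had 10 for 1 hr of IL-4, 13 for IL-4, 17 over LPS and 11 for the interaction. RNAPII-pS2 then had 4 for 1 hr of IL-4, 31 for IL-4, 20 over LPS, 42 over IL-4 and 25 for the interaction, and p65 had 10 for IL-4, 18 over LPS and 17 for the interaction. The others had 27 (p300), 35 (H3K27Ac), 11 (PU.1), 7 (HDAC1), 7 (HDAC2) and 1 (HDAC3). Within 1000 bp, RNAPII-pS5 had 0 for 1 hr of IL-4, 7 for LPS, 2 for IL-4 and 6 over IL-4. RNAPII-pS2 had 10 for LPS, 7 for IL-4, 4 over LPS, 12 over IL-4 and 5 for the interaction, p65 had 11, 2, 3, 11 and 2 for these, p300 had 0 and H3K27Ac 3. With the upper 50% of peaks, RNAPII-pS5 had 4 for 1 hr of IL-4, 9 for LPS, 4 for IL-4, 3 over LPS and 6 over IL-4, and RNAPII-pS2 had 3, 12, 7, 5 and 15 for these. There p65 had 3 for IL-4 and 10 over LPS, p300 had 9, PU.1 had 5, HDAC1 had 2 and HDAC2 had 1. With missing peaks at 4 times the lowest score, RNAPII-pS5 had 0 for 1 hr of IL-4, 9 for LPS, 3 for IL-4, 7 over IL-4 and 2 for the interaction, and RNAPII-pS2 had 5 over LPS and 6 for the interaction. There p65 had 13 for LPS, 1 for IL-4, 12 over LPS and 1 for the interaction, and p300 had 2. With a peak required in every sample, RNAPII-pS5 had 0 for 1 hr of IL-4, and then 2 for LPS, 2 for IL-4, 1 over LPS, 1 over IL-4 and 0 for the interaction. For these 5 comparisons RNAPII-pS2 had 6, 0, 1, 4 and 0 and p65 had 2, 0, 0, 3 and 0, while p300 had 4. With the replicate block, RNAPII-pS5 had 0 for 1 hr of IL-4, 4 for IL-4, 3 over LPS and 0 for the interaction, RNAPII-pS2 had 4 over LPS and 0 for the interaction, p65 had 0 for the interaction, p300 had 0 and H3K27Ac had 14. With the lowest score set before centring, chosen after seeing the data, RNAPII-pS5 had 0 for 1 hr of IL-4, RNAPII-pS2 had 5 for the interaction, p65 had 11 over LPS and 21 over IL-4, and p300 had 0. Without centring p65 had 2 for IL-4, 15 over LPS and 52 over IL-4, and p300 had 3. With a gene's highest score p300 had 2, and with peaks at any distance that were not intergenic p65 had 8 for IL-4 and p300 had 5.

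Leaving out each sample in turn gave RNAPII-pS5 0 to 0 for 1 hr of IL-4, 10 to 16 for LPS, 0 to 7 for IL-4, 2 to 7 over LPS, 6 to 12 over IL-4 and 0 to 0 for the interaction. RNAPII-pS2 had 0 to 0, 13 to 28, 5 to 17, 0 to 7, 15 to 23 and 0 to 0 in the same order, and p65, from LPS on, 20 to 29, 4 to 12, 0 to 8, 20 to 33 and 0 to 9. p300 had 0 to 19, H3K27Ac 6 to 12, and PU.1, HDAC1, HDAC2 and HDAC3 0 to 0.

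Changes of sign with missing peaks at 4 times the lowest score were, in RNAPII-pS5, Mir1946b (0.036 with LPS and IL-4, −0.036 interaction), Mir692-1 (−0.066 IL-4, 0.066 LPS after IL-4 and interaction), Mir1190 (−0.20), Mir1198 (−0.16), Mir99b (−0.21) and Mir670 (−0.13). In RNAPII-pS2 they were Mir1946b (0.030), Mir3473 (0.069), Mir804 (0.040), Mir106b (−0.11) and Mir674 (−0.11). In p65 they were Mir142 (−0.031), Mir29b-1 (−0.34 and −0.81), Mir3095 (−0.095 and −0.099), Mir3110 (−0.44 and −0.34), Mir466n (−0.29), Mir5122 (−0.27), Mir1900 (−0.33), and Mir320, Mir5104 and Mir5129 (−0.81), and in H3K27Ac Mir1901 (−0.032). Over non-intergenic peaks at any distance they were Mir1946b (1.52) and Mir1982 (1.26) in RNAPII-pS2, Mir21 (−0.14 with LPS, −0.42 after IL-4), Mir5123 (−0.17) and Mir1893 (−0.14) in p65, and Mir3065 (0.69) in H3K27Ac. Within 1000 bp Mir1907 was −0.65 in RNAPII-pS2, and with the upper 50% of peaks Mir339 was 0.68 in the RNAPII-pS2 interaction. Without centring p65 gave 0.072 and 0.76 at Mir1932, 0.080 at Mir466n and 0.18 at Mir704.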
